A study of Mus musculus with 23 samples.

Results

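Trypsinogens are the inactive precursors of trypsin that pancreatic acinar cells store in zymogen granules and secrete into the gut. The genes described here are 6 mouse trypsinogen genes, Prss2, 2210010C04Rik, Try4, Try5, Try10 and Gm5409, out of 18512 gene symbols counted in the head of the pancreas. They were taken by symbol as the trypsinogens whose level was not higher at day 7 after caerulein injury than at baseline, so they were chosen by their day 7 and baseline values, and that contrast is given only as a description. The other 6 of the 12 trypsinogen genes counted, Prss1, Prss3, Gm5771, Gm10334, Gm2663 and 1810009J06Rik, were higher at day 7 and were not members. Nearest to the limit on the inside was Try10, with a log2 fold change of -0.26 at day 7, and nearest on the outside was Prss3, with 1.77. All 6 genes had enough counts to be tested, among 12195 genes that did.

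The mice were C57BL/6 animals from Charles River, 6 to 8 weeks old, of both sexes. There were 8 uninjured baseline mice (4 female, 4 male), 8 mice at day 7 (4 female, 4 male) and 7 mice at day 14 (3 female, 4 male) of recovery. Injured mice had received caerulein, a cholecystokinin analog that overstimulates acinar cells, intraperitoneally at 50 µg/kg in 8 hourly injections on each of 2 successive days. Each mouse gave 1 library of ribosomal RNA-depleted total RNA, and mice are named below by their number in the labels. Baseline mice are described as non-injured, and no vehicle-injected group was analysed here.

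In the duodenum, enteropeptidase cleaves a short activation peptide from trypsinogen, and the trypsin released then activates the other pancreatic zymogens. Activation that starts too early, inside the pancreas, is the classical trigger of pancreatitis, and acinar cells guard against it with inhibitors such as the Spink proteins. Mice carry many trypsinogen genes in a cluster within the T cell receptor beta locus. Prss2 encodes an anionic trypsinogen, 2210010C04Rik encodes the cationic trypsinogen known as T7, and Try4 and Try5 encode further main pancreatic isoforms.

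The 6 genes lay within 495 kb of chromosome 6 (build GRCm38, the same assembly as mm10, annotation GENCODE vM21). From low to high coordinates they were 2210010C04Rik (41030268 to 41035509, minus strand), Try4 (41302269 to 41305532, plus), Try5 (41311233 to 41316841, minus), Try10 (41354105 to 41357914, plus), Gm5409 (41416912 to 41419589, plus) and Prss2 (41521787 to 41525079, plus). Only 5.70 kb separated Try4 from Try5, whereas 267 kb separated 2210010C04Rik from Try4. Gm5409 was annotated as an unprocessed pseudogene and the other 5 as protein coding. The coding exons that carry the activation site are printed because they show how alike these transcripts are, which bears on how reads could be assigned to them. Each stretch is 60 bases of the GENCODE transcript, written 5′ to 3′, and opens with the codons of the enteropeptidase recognition site, a run of aspartate codons closed by a lysine codon. Capitals mark bases that differ from Prss2.
Prss2, chr6:41522831-41522890, plus strand: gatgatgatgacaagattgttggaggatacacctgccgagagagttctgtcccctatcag
Try4, chr6:41303298-41303357, plus strand: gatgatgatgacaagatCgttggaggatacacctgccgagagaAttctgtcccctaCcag
Try5, chr6:41313435-41313494, minus strand: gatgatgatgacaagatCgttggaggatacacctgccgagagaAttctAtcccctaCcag
Try10, chr6:41355466-41355525, plus strand: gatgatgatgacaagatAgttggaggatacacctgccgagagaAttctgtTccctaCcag
2210010C04Rik, chr6:41034330-41034389, minus strand: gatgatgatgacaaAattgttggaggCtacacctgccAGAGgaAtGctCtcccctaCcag
In this stretch Try4 differed from Prss2 at 3 positions, Try5 and Try10 at 4 each, and 2210010C04Rik at 10. The stretch was not found in Gm5409 by the search used.

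Over whole transcripts, Try4 and Try5 were 97.1% identical and Try10 and Gm5409 were 97.7% identical, whereas Prss2 and Try4 were 90.1% identical. 2210010C04Rik was the most distant member, with 76.2% to 76.9% identity to the other 5. The authors counted only uniquely mapped fragments, so near-identical stretches give few counts or none. Of all windows of 75 bases, which is the read length, 100% in 2210010C04Rik and 99.1% in Prss2 were found in no other transcript. That share was 85.1% in Gm5409, 75.3% in Try10, 62.2% in Try5 and 56.1% in Try4, and 34.5% of the Try4 windows also occurred in Try5. The counts of Try4 and Try5 are therefore uncertain relative to each other, and so are those of Try10 and Gm5409. No exon of the 6 genes overlapped an exon of another gene.

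Upstream sequence was held in the RefSeq table (GRCm38.p6) for 3 of the 6 genes and for 8 of the 12 trypsinogens. It is shown because Prss2 and 2210010C04Rik, the genes with the lowest log2 fold changes below, can be set beside Try4. PTF1, the transcription factor complex that drives digestive enzyme genes in acinar cells, is known to bind an E box paired with a TC box. The 250 bases before each start are written 5′ to 3′ in the direction of transcription. Capitals mark TATAAA on the sense strand, and CACCTG (an E box) and TTTCCC (the core of a TC box) on either strand, where they read CAGGTG and GGGAAA in the opposite orientation.
Prss2, chr6:41521526-41521775, plus strand: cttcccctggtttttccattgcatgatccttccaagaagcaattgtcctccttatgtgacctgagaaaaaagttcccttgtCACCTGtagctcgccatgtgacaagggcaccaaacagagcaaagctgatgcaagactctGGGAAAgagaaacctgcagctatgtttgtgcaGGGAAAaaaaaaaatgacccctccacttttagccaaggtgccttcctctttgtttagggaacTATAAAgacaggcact
2210010C04Rik, chr6:41035510-41035759, minus strand: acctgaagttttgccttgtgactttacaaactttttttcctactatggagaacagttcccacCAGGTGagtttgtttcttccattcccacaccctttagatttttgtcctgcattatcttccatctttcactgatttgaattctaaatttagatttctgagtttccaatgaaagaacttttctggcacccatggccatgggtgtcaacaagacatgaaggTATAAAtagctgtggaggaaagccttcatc
Try4, chr6:41302022-41302271, plus strand: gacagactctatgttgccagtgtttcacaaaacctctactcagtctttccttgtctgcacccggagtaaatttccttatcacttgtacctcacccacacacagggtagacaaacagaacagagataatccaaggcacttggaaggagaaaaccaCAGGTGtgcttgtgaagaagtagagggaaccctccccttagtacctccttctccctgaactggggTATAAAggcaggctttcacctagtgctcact
Prss2 held CACCTG 169 bases before its start, followed by TTTCCC at 110 and at 78 bases and TATAAA at 16 bases before the start. 2210010C04Rik held CACCTG at 188 bases and TATAAA at 30 bases before the start, and Try4 held them at 96 and at 31 bases. Neither of these had TTTCCC in the window. TTTCCC was also present before the starts of Prss1, Gm5771 and Gm2663, trypsinogens that were higher at day 7. It was absent from the windows of Prss3 and Gm10334, which were also higher at day 7. All 8 trypsinogen windows of 300 bases (250 before and 50 after the start) held both TATAAA and CACCTG, a pair present in 1.56% of 32851 mouse windows of that size. TATAAA alone was present in 8.32% of them, CACCTG in 20.2% and TTTCCC in 25.2%. The 8 trypsinogen windows cannot be taken as independent of each other. Identity between pairs of them ran from 54.3% (Gm2663 with Gm10334) to 97.5% (Prss1 with Gm5771). The motifs did not overlap each other in the 3 windows shown. Whether the distance between CACCTG and TTTCCC suits a PTF1 site was not tested, and a match is not evidence of binding.

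The tissue matched its label, since the 6 acinar markers (Prss2, Cpa1, Cela1, Pnlip, Amy2a5 and Ctrb1) were counted in every mouse and together made up 136405 to 358524 TMM-scaled CPM, where CPM are counts per 1e+06 counts of a library. Library totals ranged from 7059890 to 9567446 counts. Unless another scale is named, levels are CPM after TMM scaling, which sets the bulk of genes level between libraries. TMM factors were 0.770 to 1.003 in the baseline mice, 1.05 to 1.40 in the day 7 mice and 0.934 to 1.03 in the day 14 mice, so the scaling itself moved with the time points. Scaling by total counts instead raised the median log2 fold change of all genes at day 7 (0.02 with TMM, 0.47 with totals) and day 14 (0.01 and 0.22). Each result below therefore holds relative to the bulk of genes. For each of the 6 genes the share of the library or a value with total counts is also given. In whole tissue, fewer acinar cells and less RNA per acinar cell cannot be told apart.

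Together the 6 genes took between 10.05% and 11.9% of all counts at baseline (median 11.02%), between 8.24% and 10.4% at day 7 (median 8.93%) and between 9.63% and 10.8% at day 14 (median 10.3%). In 5 of 8 day 7 mice the share was under that of every baseline and day 14 mouse, and the other 3 overlapped them. The 6 genes made up nearly all trypsinogen counts, with a median share of 99.8% at baseline, 98.1% at day 7 and 99.6% at day 14. The other 6 trypsinogens, which as a description were all higher at day 7, still took no more than 2.53% of the trypsinogen counts in any mouse.

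**Figure D1:**
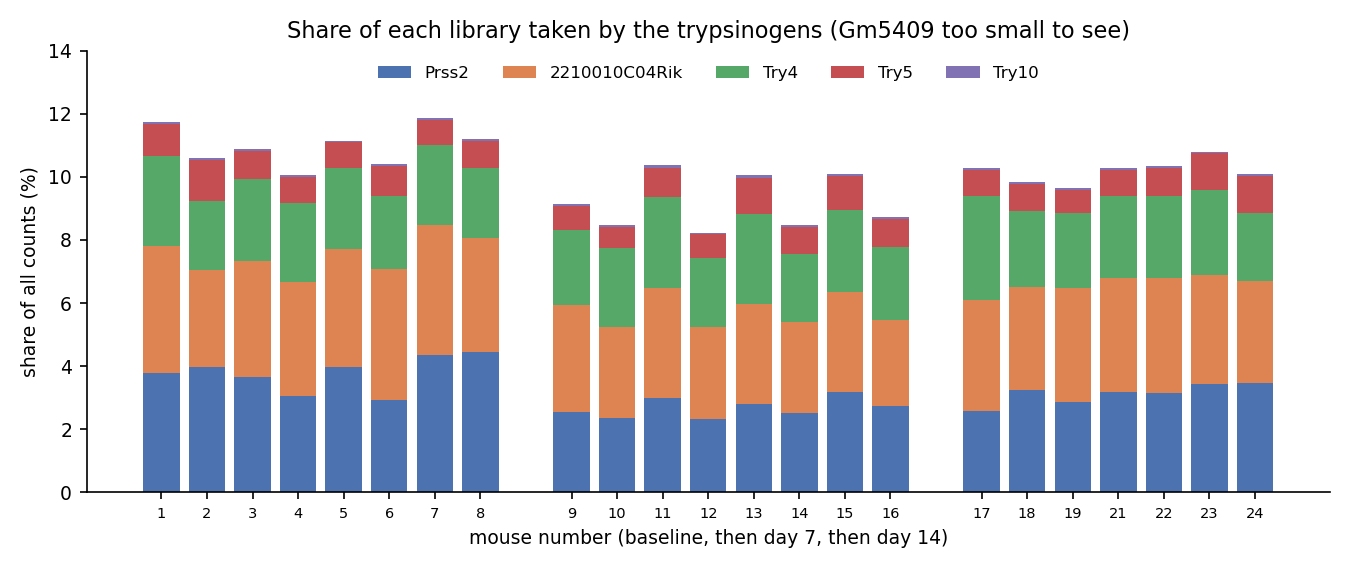
Stacked bars of the share of all counts (%) taken by Prss2, 2210010C04Rik, Try4, Try5 and Try10 in each of the 23 mice, numbered as in the labels and ordered baseline, day 7, day 14. The whole stack has medians of 11.02%, 8.93% and 10.3% in the 3 groups, and the blue Prss2 part is the one that shrinks most, while the green Try4 part keeps about the same height.

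The 6 genes were very unequal in level. By mean CPM over the 23 mice, 2210010C04Rik ranked 8th, Prss2 ranked 9th, Try4 ranked 11th and Try5 ranked 21st among all symbols, while Try10 ranked 52nd. Gm5409 was not abundant, since it had 19 to 65 counts a mouse and 67.4% of the genes tested had a higher mean. Per kilobase of coding sequence, the median baseline levels were 60605 for Prss2 and 58380 for 2210010C04Rik, in CPM per kilobase. These neighbours in the order did not separate, since Prss2 was the higher of the pair in 8 of 23 mice. Try4 followed with 39074, Try5 with 13792 and Try10 with 931, and in every mouse Try5 was below Try4 and Try10 below Try5. Try4 exceeded Prss2 in 3 of 23 mice and 2210010C04Rik in none. These levels were not corrected for sequence shared between genes. Windows of 75 bases found in no other transcript made up 56.1% of Try4, against 99.1% of Prss2 and 100% of 2210010C04Rik. The place of Try4 beside those 2 genes is therefore uncertain. Per kilobase of all annotated exons (RPKM), 2210010C04Rik stood lower, at 20196 against 54879 for Prss2 and 36001 for Try4, because its annotated transcript is 2142 bases long with a coding part of 741 bases. On that RPKM scale Gm5409 had a median of 8.01 at baseline.

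Prss2 was the gene with the lowest log2 fold change of the 6 at both times. Its level ran from 30450 to 54510 CPM at baseline (median 44726), from 16781 to 27955 at day 7 (median 23589) and from 25750 to 36593 at day 14 (median 31463). All 8 day 7 mice lay below every baseline mouse, which the choice of genes favours. At day 14, 2 of 7 mice lay below every baseline mouse, all 7 lay below the baseline median, and 5 of 7 lay above every day 7 mouse. As a description, the log2 fold change at day 7 was -0.94 (SE 0.103). At day 14 it was -0.51 against baseline (SE 0.107, adjusted p = 0.00966, edgeR), with a mean at 71.3% of the baseline mean. From day 7 to day 14 Prss2 rose by a log2 fold change of 0.43 (SE 0.106, adjusted p = 0.0318).

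The lower level of Prss2 at day 14 was under the 1.5-fold mark used to call genes. On the share scale, Prss2 took a median of 3.89% of all counts at baseline, 2.65% at day 7 and 3.18% at day 14. There 6 of 8 day 7 mice and 2 of 7 day 14 mice lay below every baseline mouse. With total count scaling the day 14 log2 fold change was -0.29 (adjusted p = 0.0126), and it stayed past the threshold in all 8 alternative settings (adjusted p from 0.000206 to 0.0267) and without any 1 of the 23 mice (0.00221 to 0.0348). The rise from day 7 to day 14 was less firm. It no longer passed without any 1 of the day 7 mice 12, 14 and 15 or the day 14 mice 18, 22, 23 and 24, where the adjusted p was between 0.0597 and 0.0797. The baseline and day 7 mice of these comparisons were also used to choose the genes, whereas the day 14 mice were not.

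2210010C04Rik, the cationic trypsinogen, followed a similar course with a narrower day 14 group. Its level ran from 35385 to 53794 CPM at baseline (median 43259), from 20775 to 32511 at day 7 (median 25765) and from 31835 to 37584 at day 14 (median 35180). The baseline and day 7 mice did not overlap, and 5 of 7 day 14 mice lay below every baseline mouse. At day 14 the SD between mice was 0.08 on the log2 scale, against 0.22 at baseline, 0.20 at day 7 and a median of 0.20 over all genes tested at day 14. As a description, its day 7 log2 fold change was -0.74 (SE 0.0911). The day 14 value of -0.33 (SE 0.0941, edgeR, adjusted p = 0.0748) did not pass, nor did it with total counts (-0.11, adjusted p = 0.188). It did pass with DESeq2 (adjusted p = 0.0140), with a fit of only the mice compared (0.0206), with total counts without the 20 most abundant genes (0.0451) and without baseline mouse 4 (0.0440), within a range over all alternatives of 0.0140 to 0.188. From day 7 to day 14 it rose by a log2 fold change of 0.40 (SE 0.0938, adjusted p = 0.0247). That call was lost without any 1 of the day 7 mice 14 and 15 or the day 14 mice 17, 22 and 23, with an adjusted p between 0.0546 and 0.0667.

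**Figure D2:**
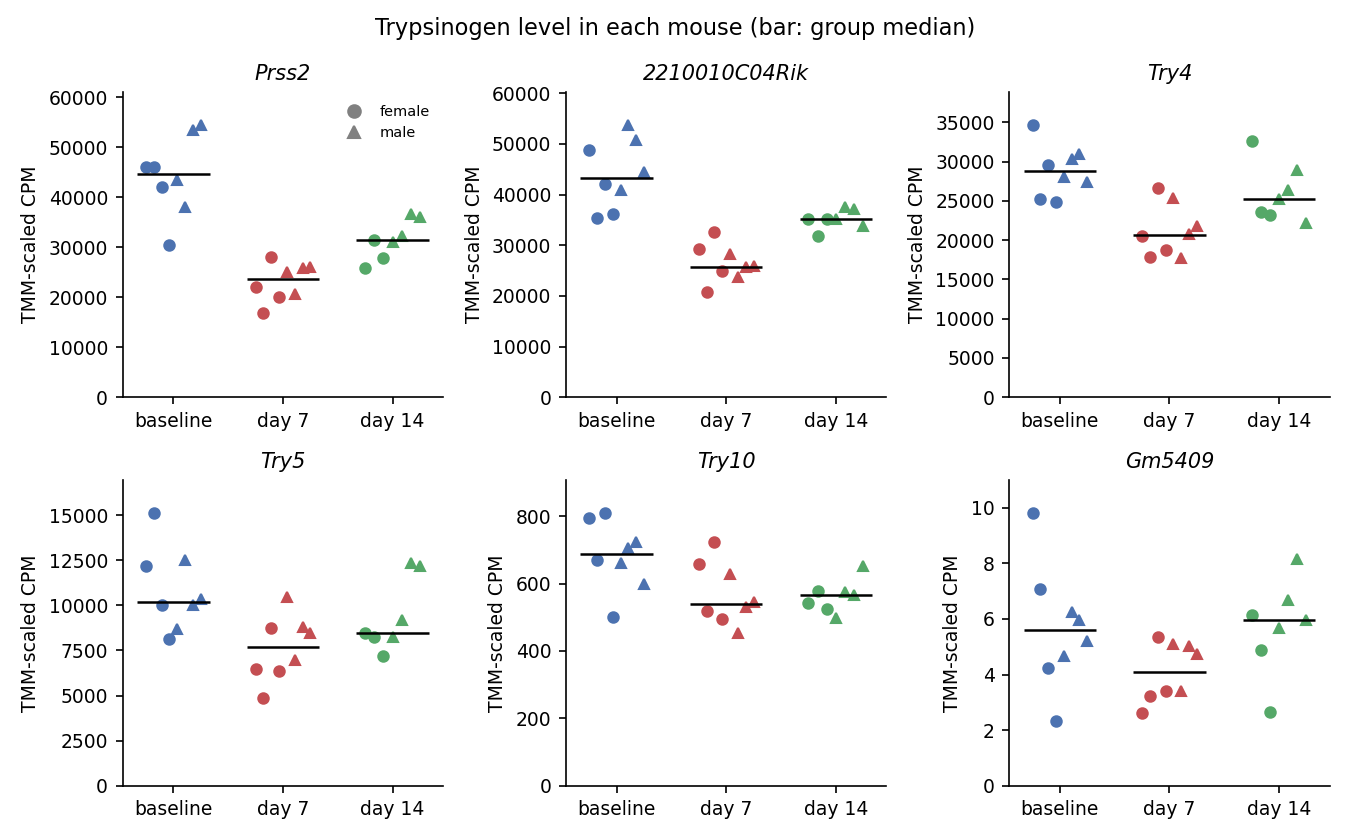
TMM-scaled CPM of the 6 genes on linear axes, 1 point per mouse (circles female, triangles male), with a bar at the median of each group. For Prss2 and 2210010C04Rik all day 7 points lie under all baseline points and all day 14 points lie under the baseline median, whereas for Try10 and Gm5409 the 3 groups overlap.

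Try4 and Try5 are the near-identical pair, with log2 fold changes nearer to 0 than those of Prss2 and 2210010C04Rik. Try4 ran from 24895 to 34713 CPM at baseline (median 28837), from 17704 to 26604 at day 7 (median 20697) and from 22222 to 32667 at day 14 (median 25229). Try5 ran from 8158 to 15112 CPM at baseline (median 10178), from 4859 to 10486 at day 7 (median 7707) and from 7183 to 12336 at day 14 (median 8479). In both genes the 3 groups overlapped. As a description, the log2 fold change at day 7 was -0.45 for Try4 and -0.53 for Try5, but with total count scaling it was 0.00 for Try4 and -0.08 for Try5. The median share of the library was nearly level in both, at 2.51%, 2.43% and 2.58% for Try4 and 0.858%, 0.870% and 0.850% for Try5 at baseline, day 7 and day 14.

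At day 14 neither gene passed against baseline. The log2 fold change was -0.15 for Try4 (SE 0.101, adjusted p = 0.563), and 0.07 with total counts. It was -0.24 for Try5 (SE 0.147, adjusted p = 0.512), and -0.02 with total counts. Against day 7 the values were 0.30 for Try4 (adjusted p = 0.144, but 0.0493 with DESeq2 and 0.0493 to 0.473 over all alternative settings) and 0.29 for Try5 (adjusted p = 0.385).

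Try10, a less abundant coding trypsinogen, stood at similar TMM-scaled levels at day 7 and day 14. It ran from 501 to 809 CPM at baseline (median 687), from 453 to 725 at day 7 (median 538) and from 498 to 652 at day 14 (median 565). The groups overlapped at every time. The log2 fold change was -0.26 at day 7, a value whose sign turned with total count scaling (0.19). At day 14 it was -0.28 against baseline (SE 0.0987, adjusted p = 0.176) and -0.01 against day 7 (SE 0.0985, adjusted p = 0.967), the latter becoming -0.24 with total counts (adjusted p = 0.0204, and up to 0.995 in the other alternatives). On the share scale Try10 was highest at day 7, with a median of 0.0679% of all counts against 0.0584% at baseline and 0.0544% at day 14, and 4 of 7 day 14 mice lay below every day 7 mouse.

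Gm5409, the pseudogene, lay between 2.34 and 9.81 CPM in baseline mice, between 2.63 and 5.34 in day 7 mice and between 2.65 and 8.15 in day 14 mice. Its medians were 5.59, 4.08 and 5.95, and the groups overlapped throughout. Its day 7 log2 fold change, a description, was -0.48 (SE 0.221), and -0.02 with total counts. The day 14 value was -0.02 (SE 0.227, adjusted p = 0.988), and 0.20 with total counts. At 19 to 65 counts a mouse, a difference of this size was not detectable. Reads of Try10 that map to Gm5409, or the reverse, cannot be told from these counts.

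Counted over the 6 genes, 2 (Prss2 and 2210010C04Rik) were called lower at day 7 by the rule used for DEGs (adjusted p up to 0.05, fold 1.5 or more), where 1.31% of all genes tested were, a count fixed in part by the choice of the genes. At day 14 against baseline none of the 6 was called at that rule, where 0.787% of all genes were, and DESeq2 called none either. Of the 6, 3 (Prss2, 2210010C04Rik and Try10) had an unadjusted p under 0.05, and 1 (Prss2) had an adjusted p of at most 0.05 at any fold, where 1.57% of all genes did. At day 14 against day 7 none was called at the rule with the fold by edgeR (0.377% of all genes) or DESeq2. There 3 of the 6 had an unadjusted p under 0.05 and 2 (Prss2 and 2210010C04Rik) an adjusted p of at most 0.05 at any fold (1.29% of all genes). Against baseline the 6 had a median of -0.50 at day 7, beside 0.02 over all genes tested, and of -0.26 at day 14, beside 0.01. Against day 7 the day 14 median was 0.35, beside -0.01 over all genes. The baseline and day 7 mice were used to choose the genes, which favours a fall from baseline and a rise from day 7 in these counts and medians.

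**Figure D3:**
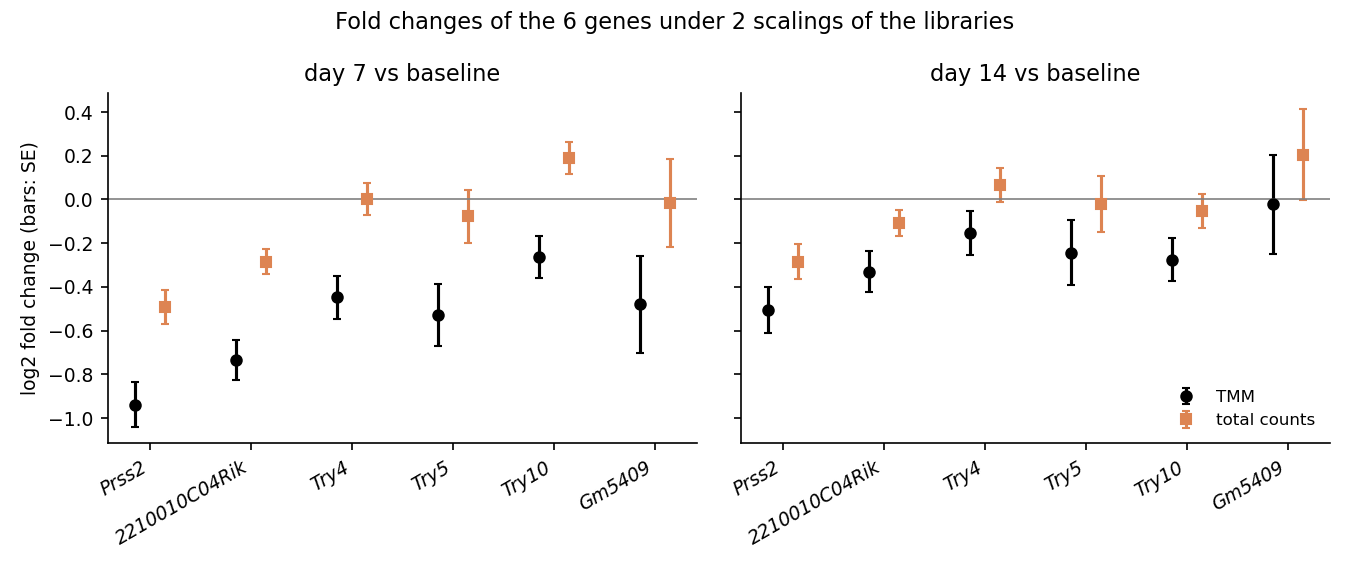
Log2 fold changes of the 6 genes against baseline at day 7 (left, a description with no test) and at day 14 (right), with SE bars, for TMM scaling (circles) and total count scaling (squares). Prss2 and 2210010C04Rik lie under 0 with both scalings, whereas Try4 and Try10 at day 7 and Try4 and Gm5409 at day 14 lie on or above 0 with total counts.

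Ratios of 2 genes within a library do not depend on how libraries are scaled, so each gene was also set against Prss2. At baseline the mean log2 ratio to Prss2 counts was 0.00 for 2210010C04Rik (SD 0.284, n = 8), -0.60 for Try4 (SD 0.261), -2.03 for Try5 (SD 0.330), -6.01 for Try10 (SD 0.266) and -12.92 for Gm5409 (SD 0.459). At day 7 every one of these means was higher, as a description, by 0.20 for 2210010C04Rik, 0.48 for Try4, 0.42 for Try5, 0.67 for Try10 and 0.51 for Gm5409. Higher means at day 7 follow from the reference, because Prss2 had the lowest day 7 log2 fold change of the 6 genes (-0.94). The Try10 ratio exceeded every baseline mouse in all 8 day 7 mice, and the Try4 ratio in 7 of 8, which the same choice favours.

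The Try10 ratio to Prss2 then fell by 0.47 on the log2 scale from day 7 to day 14 (means -5.34 and -5.80, SD 0.221 and 0.149). The exact two-sided permutation test gave p = 0.000932, and 0.00932 after adjustment over 10 ratio tests, with 6 of 7 day 14 mice below every day 7 mouse. This was the only one of the 10 to pass, and it passed without any 1 mouse. It starts from the day 7 mice, which were also used to choose the genes. From day 7 to day 14 Prss2 itself rose by 0.43 with TMM scaling, whereas Try10 was at -0.01. The day 14 ratios against baseline were higher by 0.16 for 2210010C04Rik (adjusted p = 0.277), 0.32 for Try4, 0.27 for Try5, 0.21 for Try10 and 0.50 for Gm5409 (adjusted p = 0.168 each for the last 4, exact permutation tests). Against day 7 the other day 14 ratios differed by -0.04 for 2210010C04Rik (exact permutation, adjusted p = 0.749), -0.16 for Try4 (0.277), -0.15 for Try5 (0.183) and -0.01 for Gm5409 (0.939). Without day 14 mouse 17, whose Try4 level of 32667 CPM was the highest of its group, the Try4 difference from day 7 was -0.26 (exact permutation, adjusted p = 0.0200, against up to 0.565 without 1 of the other mice).

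**Figure D4:**
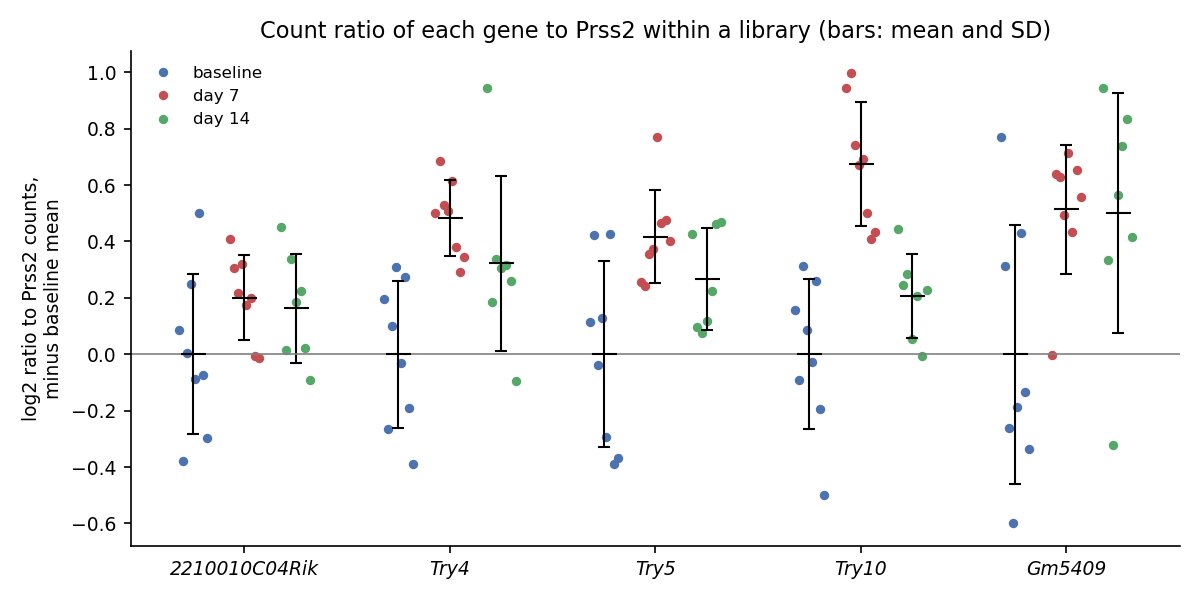
Log2 ratio of each gene's counts to the Prss2 counts of the same library, minus the baseline mean, 1 point per mouse, with mean and SD for baseline (blue), day 7 (red) and day 14 (green). Day 7 means sit 0.20 to 0.67 above baseline, which follows from the reference, since Prss2 had the lowest day 7 log2 fold change of these genes. The Try10 ratio drops by 0.47 from day 7 to day 14.

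No difference between the sexes passed the test in any of the 6 genes. By the rule for DEGs none of the 6 was called between females and males, where 0.23% of all genes were. DESeq2 also called none of the 6, and 1 (Prss2) had an unadjusted p under 0.05 in edgeR. The log2 difference, female minus male with the time point as a covariate, was -0.21 for Prss2 (SE 0.0857, adjusted p = 0.426), -0.21 for Try5 (SE 0.118, adjusted p = 0.655) and -0.25 for Gm5409 (SE 0.184, adjusted p = 0.779). For the other 3 it lay between -0.08 and 0.05.

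Try5 was the coding gene whose change differed most between the sexes in value. In females its mean log2 difference from the same-sex baseline was -0.78 at day 7 (n = 4) and -0.48 at day 14 (n = 3), and in males it was -0.26 at day 7 and 0.00 at day 14 (n = 4 each). The day 14 males ranged from -0.32 to 0.26, and the day 14 females from -0.62 to -0.39, so these differences did not overlap between the sexes. They take each baseline mean as fixed, although baseline females ran from 8158 to 15112 CPM and baseline males from 8687 to 12493 CPM. The day 14 levels themselves did overlap, at 7183 to 8479 CPM in females and 8222 to 12336 CPM in males. The interaction of sex with day 14 was -0.53 for Try5 (SE 0.273, unadjusted p = 0.0659, adjusted p = 0.99997) and did not pass. At an adjusted p of at most 0.05 edgeR called 0% of all genes for this interaction, while 460 of 12195 genes, none of them a member, had an unadjusted p under 0.05 and DESeq2 called 1 gene. In Prss2 the sexes were close in value, with -0.93 and -0.95 at day 7 and -0.52 and -0.47 at day 14 in females and males.

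Across the 23 mice the members followed different genes most closely, as Pearson correlations of log2 CPM, which share libraries, scaling and time points and are given as a description. Prss2 was most like Cel, Cpa1 and Pnlip (r = 0.93, 0.93 and 0.91), and 2210010C04Rik most like Clps, Cpa1 and Pnlip (r = 0.95, 0.94 and 0.94), all of them digestive enzyme or colipase genes. Try10 was most like Cuzd1, a zymogen granule membrane gene (r = 0.84), Lmf1 and Camk2b (0.78 each). Try4 was most like Ints3, Tmem106c and 1810018F18Rik (r = 0.85, 0.84 and 0.83), and Try5 most like Cnih1, Tcp1 and Carkd (0.86, 0.85 and 0.83). Gm5409 was most like the ribosomal protein genes Rpl10a and Rpl3 and like Gm12191 (0.76, 0.74 and 0.72). Among the members themselves, r ran from 0.46 (Try10 with Gm5409) to 0.88 (2210010C04Rik with Prss2 and with Try4).

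Prss3 is not a member because it was higher at day 7, so the choice of genes favours a negative r over all mice. Such an r was negative for every member with every non-member trypsinogen, from -0.85 (Prss2 with 1810009J06Rik) to -0.07 (Gm5409 with Prss3). Try5 and Prss3 had r of opposite sign over all mice and within time point and sex. Over all 23 mice r was -0.22, whereas after the mean of each time point and sex was subtracted it was 0.77, and for Try5 with Gm5771 the values were -0.24 and 0.63. The highest Try5 level at baseline, 15112 CPM, and the highest Prss3 level at baseline, 518 CPM, were both in mouse 2. At day 7 both genes were highest in mouse 13, at 10486 and 1091 CPM, and at day 14 in mouse 23, at 12336 and 572 CPM. For Prss2 with Prss3 the values were -0.61 over all mice and 0.65 within time point and sex. Try5 and Prss3 transcripts were 91.1% identical, and the part that shared sequence plays was not tested.

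**Figure D5:**
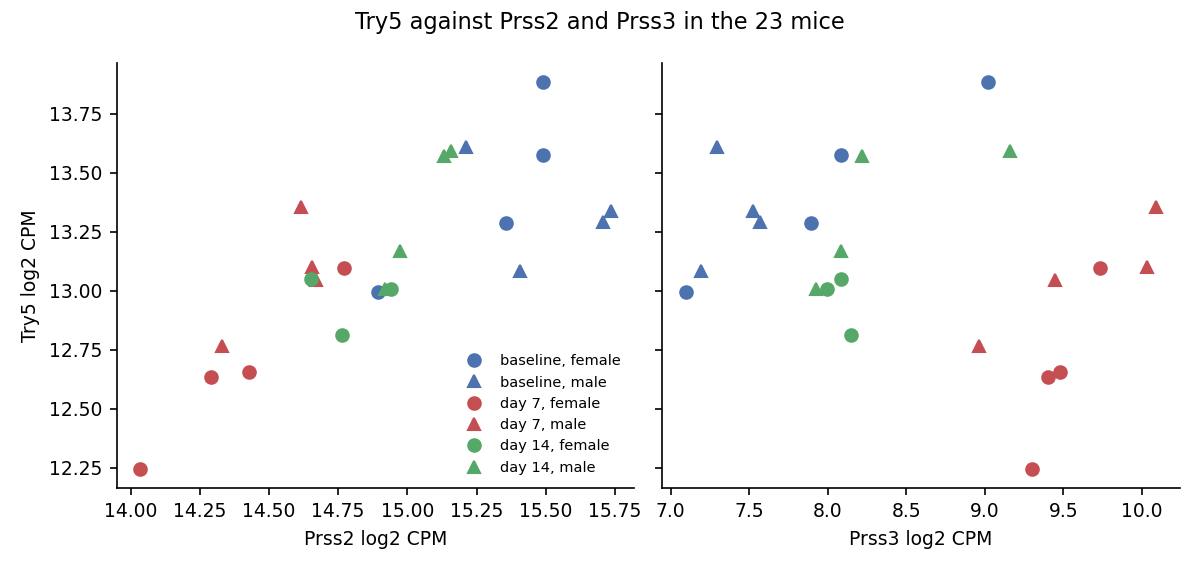
Log2 CPM of Try5 (vertical) against Prss2 (left) and Prss3 (right) in the 23 mice, colored by time point, circles female and triangles male. With Prss2 all mice form 1 rising band (r = 0.78), whereas with Prss3 the day 7 mice are displaced to the right and the mice rise within each time point (r = 0.77 within time point and sex). The displacement follows from the choice of genes, since Prss3 is not a member because it was higher at day 7.

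The trypsinogens that were not members stood below Prss2, 2210010C04Rik, Try4 and Try5 in level, with at most 1091 CPM in any mouse (Prss3). As a description, their day 7 log2 fold changes ran from 1.77 (Prss3) to 9.61 (Gm2663). At day 14 against baseline 3 of the 6 had risen at an adjusted p of at most 0.05, where 1.57% of all genes passed in either direction. They were Gm2663 (6.30), 1810009J06Rik (3.34) and Gm10334 (1.53). Prss1 (0.60, adjusted p = 0.212), Gm5771 (0.70, 0.515) and Prss3 (0.47, 0.512) did not pass. The values of the low genes depend on few baseline counts: Gm2663 had at most 0.739 CPM in any baseline mouse, against 15.5 to 30.9 CPM at day 14 and 85.8 to 297 CPM at day 7.

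The other digestive enzymes, a list of 20 lipases, amylases, elastases, chymotrypsinogens, carboxypeptidases and others, had medians close to those of the 6 trypsinogens. Their median log2 fold change was -0.57 for day 7, and for day 14 it was -0.26. At day 7, 16 of the 20 were lower and 1 (Cela3a, an elastase, 0.67) was higher at an adjusted p of at most 0.05, where 18.6% of all genes tested passed in either direction. At day 14, 5 of 20 were lower at that threshold and none higher, where 1.57% of all genes passed in either direction. Cela2a lay at one end, at -0.48 (edgeR, adjusted p = 0.00304), and Cela3a at the other, at 0.33 (0.361). From day 7 to day 14, 7 of 20 rose at that threshold and none fell, where 1.29% of all genes passed in either direction. Pnlip, pancreatic lipase, had the largest rise, at 0.56 (edgeR, adjusted p = 0.000357). Of the 6 acinar markers, 4 had fallen at day 14 (Prss2, Ctrb1, Cpa1 and Pnlip), while Amy2a5, an amylase, was at -0.08 (adjusted p = 0.945).

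Genes that restrain or process trypsin were mostly at values close to 0 where they could be tested. Of 15 listed trypsin regulators, 14 were among the symbols counted and 7 could be tested. At an adjusted p of at most 0.05, 2 of the 7 tested rose at day 7, where 18.6% of all genes passed in either direction. At day 14 none passed in edgeR (1.57% of all genes), while 2 had an unadjusted p under 0.05. The 2 at day 7 were Pi15, a peptidase inhibitor (1.26 at day 7, adjusted p = 1.62e-05, and 0.65 at day 14, adjusted p = 0.0766), and Ctsd, cathepsin D (0.15 at day 7, adjusted p = 0.0280). Spink1, the trypsin inhibitor of the acinar cell, was at -0.10 at day 7 (adjusted p = 0.457) and 0.04 at day 14 (0.915), and Ctsb, cathepsin B, which can activate trypsinogen, at 0.05 (0.501) and 0.03 (0.882). F2rl1, a receptor that trypsin cleaves, had the lowest value of the list at day 14 (-0.12, adjusted p = 0.905).

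Over all genes tested, 18.6% had an adjusted p of at most 0.05 in either direction at day 7 and 1.57% at day 14. Of 9 acinar transcription regulators, 3 had fallen at that threshold at day 7 and 1 at day 14. The one at day 14 was Bhlha15, known as Mist1 and needed for the secretory architecture of acinar cells (-0.29 at day 7, adjusted p = 0.00940, and -0.31 at day 14, adjusted p = 0.0424). Nr5a2 had the highest value of this list at day 14 (0.06, adjusted p = 0.936). Of 6 listed secretagogue receptors 4 could be tested. In edgeR none of these 4 passed at either time, with 1 at an unadjusted p under 0.05 at day 7 and 0 at day 14. Cckar, the cholecystokinin receptor through which caerulein acts, was at 0.06 at day 7 (adjusted p = 0.677) and -0.02 at day 14 (0.970), and Chrm1 had the lowest value (-0.64 and -0.41, adjusted p = 0.104 and 0.592).

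Markers of fibroblasts, macrophages and islet cells were higher at day 7, where the 6 trypsinogens were lower. They are counted as risen or fallen against baseline at an adjusted p of at most 0.05 and any fold. Over all genes tested, 18.6% passed in either direction at day 7 and 1.57% at day 14. The summed CPM of 6 fibroblast markers was 311 to 621 in baseline, 588 to 1135 in day 7 and 495 to 701 in day 14 mice, with 6 of 6 risen at day 7 and 2 of 6 at day 14. For 6 macrophage markers it was 26.1 to 86.2, 50.1 to 114 and 34.8 to 67.0, with 5 of 6 risen at day 7 and 0 of 6 passing in edgeR at day 14 (0 at an unadjusted p under 0.05). For 5 islet markers it was 104 to 447, 302 to 903 and 358 to 704, with 2 of 5 risen at day 7 and 0 of 5 passing in edgeR at day 14 (2 at an unadjusted p under 0.05). These lists were higher in total where the trypsinogens were lower, and their part in the trypsinogen values was not tested.

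In the remaining marker lists few genes passed at that threshold, where 18.6% of all genes did at day 7. The 5 duct markers summed to 91.1 to 139 CPM in baseline, 72.9 to 121 in day 7 and 106 to 121 in day 14 mice, with 1 of 5 (Krt7) risen at day 7. The 5 endothelial markers summed to 64.8 to 110, 50.5 to 98.8 and 71.5 to 96.6 CPM, with 1 of 5 (Kdr) fallen at day 7. Of 6 lymphocyte markers 4 could be tested and edgeR called none at either time, even at an unadjusted p under 0.05, with sums of 3.48 to 114 CPM in baseline, 9.21 to 218 in day 7 and 6.67 to 125 in day 14 mice. Of 5 adipocyte markers 4 could be tested and the same held, with sums of 13.9 to 51.5, 11.2 to 101 and 13.3 to 66.1 CPM. No marker was at 0 in every mouse, although 5 of the lymphocyte and 4 of the adipocyte markers had at least 1 mouse at 0.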

How the data were processed

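Per the labels and the study's methods, the authors trimmed paired 75-base reads (FastQC, Trim Galore, cutadapt), aligned them to mm10 with STAR 2.5.2a and counted uniquely mapped fragments per gene with featureCounts. The deposited values are raw counts, 1 library per mouse. The library kit was stranded, but the strand setting of the counting and the annotation are not given in the sources used here. The members and gene lists were chosen with earlier results of these data known.

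In R 4.3.3, edgeR 4.0.16 and limma 3.58.1 (calcNormFactors with TMM, estimateDisp, robust glmQLFit, glmQLFTest) were run on the 12195 genes kept by filterByExpr (minimum count 10). One fit held all 23 mice with sex as a covariate. The interaction came from a model of sex by time point. P-values are two-sided and Benjamini-Hochberg adjusted over all genes tested. A gene was called a DEG where the adjusted p did not exceed 0.05 and the fold was 1.5 or more. The SE is the size of the log2 fold change over the root of F and so restates the test. Log2 CPM used a prior count of 2. TMM-scaled CPM is the count divided by the library total times its TMM factor, times 1e+06. P-values judge a difference between groups against the spread between mice.

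Ratios are log2((count + 2)/(Prss2 count + 2)), compared with exact two-sided permutation tests (scipy 1.17.1, Python 3.11.15), adjusted over 10 tests. RPKM used the exon union of GENCODE vM21. Named genes were the 6 members, all other trypsinogens, the highest and lowest log2 fold change at day 14 of each other list, any gene of lists of up to 6, and the 3 non-members most correlated with each member. Ctsb, Ctsd, Spink1, Krt7 and Kdr were named after their values were seen.

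Alternatives were DESeq2 1.42.0, its size factors in edgeR, total counts, total counts without the 20 most abundant genes, no filter beyond 1 count, only the mice compared, no covariate, a prior count of 0.5 for ratios and leaving out each mouse. A TMM scaling without the digestive enzyme genes was chosen after seeing the data. The edgeR test was also run on simulated counts with known changes, built from the means, library sizes and dispersion of these data, with the outcome not given here. No 2 libraries held identical counts.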

Additional observations from a re-analysis of the deposited data

How the results depend on the processing

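No paired analysis was possible because no mouse number occurs in more than 1 group. Total count scaling, which also moves the median of all genes, gave at day 7 -0.49 for Prss2, -0.28 for 2210010C04Rik, -0.0774 for Try5, and turned Try4 to 0.000377 and Try10 to 0.19. At day 14 against baseline it turned Try4 to 0.0666 and Gm5409 to 0.20, and against day 7 it took Try10 past the threshold (-0.24). It raised the number of genes called at day 14 from 96 to 448. In female against male it turned Try4 to 0.0592, as did total counts without the 20 most abundant genes (0.0117), and the number called there moved from 28 to 44 with DESeq2 and 17 with no covariate. The day 14 value of 2210010C04Rik passed the threshold with total counts without those 20 genes (-0.31), DESeq2 (-0.33) and only the mice compared (-0.33), that of Try4 against day 7 with DESeq2 (0.30), and that of Gm5409 turned to 0.0158 with no covariate.

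With each mouse left out in turn, the day 14 log2 fold change against baseline ran from -0.56 to -0.47 for Prss2, -0.37 to -0.29 for 2210010C04Rik and -0.13 to 0.16 for Gm5409. Against day 7 it ran from 0.39 to 0.50 for Prss2, 0.37 to 0.47 for 2210010C04Rik and -0.0552 to 0.0458 for Try10, and between the sexes from -0.0562 to 0.0228 for Try4. The day 14 ratio to Prss2 against day 7 ran from -0.0850 to 0.00525 for 2210010C04Rik, -0.26 to -0.0904 for Try4 and -0.0873 to 0.12 for Gm5409. The cause of these changes was not tested. TMM scaling without the digestive enzyme genes, chosen after seeing the data, kept the direction and the side of the threshold of the 6 log2 fold changes between time points and between the sexes, and was not run for the interaction or the ratios. Counts of 19 to 65 limit Gm5409, and shared sequence limits Try4, Try5 and Try10.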
